A study of Drosophila melanogaster with 27 samples.

Results

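The translation initiation factors described here are the genes of the count table whose FlyBase symbol starts with eIF. By this rule, which uses the name alone, 44 of 17529 genes were members. They were followed in RNA from *Drosophila* heads with human TDP-43 WT tagged with YFP, TDP-43 G298S tagged with YFP, or YFP alone in mushroom body neurons (MBNs). In the labels TDP-92, the TDP-43 WT flies, carried UAS TDP43WT-YFP in w together with UAS mCD8-RFP on II. TDP-94, the TDP-43 G298S flies, carried UAS TDP43G298S-YFP in w, also together with UAS mCD8-RFP on II, and GRYFP-5, the control flies, are yw;;P[UAS-2XEYFP]AH3, so the membrane RFP transgene is named for both TDP-43 genotypes and not for the YFP control. All transgenes were driven by the SS01276 split GAL4 line, which is active in a subset of Kenyon cells, the intrinsic neurons of the mushroom body. The flies were adults aged 1 to 3 days, with males and females pooled. Each of the 3 genotypes had 3 lysates of whole heads, so the cells that express the transgene are a small part of each lysate. From every lysate an input, a GFP-Trap immunoprecipitate (IP) and an unbound fraction were sequenced, 27 libraries in all. The methods state that YFP alone was present at a far higher level than TDP-43 YFP, which limits it as a control.

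Initiation in eukaryotes starts when eIF2, with GTP and the initiator tRNA, joins the small ribosomal subunit together with eIF1, eIF1A, eIF3 and eIF5. The eIF4F complex, made of the cap-binding protein eIF4E, the scaffold eIF4G and the RNA helicase eIF4A, brings the mRNA, and after the start codon is found eIF5B joins the large subunit. Regulation acts on the exchange of GDP for GTP on eIF2, which eIF2B carries out, and on the binding of eIF4E to the cap, and in neurons both steps are known for their part in memory.

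By role, 8 members belong to start codon scanning and the ternary complex, 5 encode eIF2B subunits, 16 are eIF3 subunit genes, 13 belong to cap binding and its scaffold, and 2 act on ribosomal subunits (eIF5B and eIF6). The genes lie on all major arms, with 3 on 2L, 9 on 2R, 11 on 3L, 13 on 3R, 1 on chromosome 4 and 7 on X. Genes for 35 members had counts in all 27 libraries. The other 9, namely eIF3d2, eIF3f2, eIF3g2, eIF4E3, eIF4E4, eIF4E5, eIF4E6, eIF4E7 and eIF4H2, had none in at least 1 library and are described separately. The fly genes for eIF5A and eIF4AIII carry the symbols eEF5 and CG7483 in the annotation and so are not members.

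Total counts lay between 1848426 and 16763149 in the IPs, between 16845284 and 157035496 in the inputs and between 11759327 and 58157031 in the unbound libraries, and the IP of lysate G298S-503 was the shallowest. Values below are CPM, each gene's count scaled to a common library size, after TMM scaling by the bulk of the genes, and log2 fold changes (log2FC) with their standard errors from edgeR's quasi-likelihood test. A gene was called at a Benjamini-Hochberg adjusted p value below 0.05 over all 12921 genes tested, and 43 members were tested. The 3 values of a genotype are given in the order WT-502, WT-505 and WT-202 for TDP-43 WT, G298S-503, G298S-506 and G298S-203 for TDP-43 G298S, and YFP-901, YFP-902 and YFP-201 for YFP, each lysate being named by the number in its label. WT and G298S always stand for the form of TDP-43.

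The IP asks which mRNAs are carried along with TDP-43 YFP or with YFP alone. By TMM scaling most initiation factor mRNAs were at a lower level in the IPs than in the inputs of all 3 genotypes, YFP alone included, whereas with library sizes alone most called members were higher. Among the 43 members tested, 1 was called higher and 10 lower with TDP-43 WT, against 27.8% of all genes called (16.3% higher and 11.5% lower). With TDP-43 G298S 0 were called higher and 13 lower, against 22.6% of all genes (12.6% higher and 9.95% lower). With YFP alone 4 were called higher and 12 lower, against 25.8% of all genes (15.9% higher and 9.99% lower). The median log2FC of the members was -0.44 with TDP-43 WT, -0.46 in the TDP-43 G298S lysates and -0.46 in the YFP lysates, and that of all genes was -0.09, -0.16 and -0.14 in the same order. Of the 35 widely expressed members, 11 had a lower level in the IP than in the input of 9 of 9 lysates, and none had a higher level in the IP of all 9. Among all 9705 tested genes with counts in every library, 15.5% were lower in the IP of 9 of 9 lysates and 18.6% were higher. As a sum over these 35 members, the IPs held between 2568 and 3064 CPM and the inputs between 3089 and 4246 CPM. This sum and all sums of CPM below were scaled over all 27 libraries, unlike the single genes of the IP and input contrasts.

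These calls depend on the scaling. The mitochondrial large rRNA took between 6.51% and 13.7% of the counts in the IPs and between 24.5% and 45.1% in the inputs, where the G298S inputs (43.4% to 45.1%) lay above those of WT (25.7% to 33.9%) and YFP (24.5% to 26.9%). With library sizes alone the median of all genes moved to 0.28 with TDP-43 WT, 0.72 with G298S and 0.06 with YFP, and the calls among members became 5 higher and 0 lower, 17 higher and 0 lower, and 4 higher and 1 lower. By TMM the member median minus that of all genes was -0.35 with TDP-43 WT, -0.30 with G298S and -0.31 with YFP. It was -0.35, -0.31 and -0.31 with library sizes alone. A change of scaling shifts all genes of a contrast by nearly the same amount, so this likeness is no check on the scaling. Fewer members were called with YFP when a YFP lysate was left out, 1 without YFP-901 and 4 without YFP-201. The values of some moved little with 1 lysate left out, as for eIF2A (-0.95 to -0.89) and eIF4A (-0.53 to -0.48). Those of others moved more, as for eIF2gamma (-0.91 to -0.42) and eIF4G2 (1.06 to 2.43). Without WT-502 there were 5 calls with TDP-43 WT, and without G298S-503 or G298S-506 there were 6 with G298S.

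The same IPs differed from the inputs in cell type markers. Of 10 Kenyon cell markers, 8 were called higher in the IP with TDP-43 WT (median log2FC 1.96), 8 with G298S (1.41) and 7 with YFP (1.24), and all 10 had counts in every IP and input. Of 10 photoreceptor markers 7 were called lower with TDP-43 WT, 3 with G298S and 4 with YFP, and of 7 fat body markers 3, 3 and 1. Of all genes 16.3%, 12.6% and 15.9% were called higher and 11.5%, 9.95% and 9.99% lower in the same order. Markers of neurons as a whole are not given here, so the rise is not shown to be particular to Kenyon cells. The photoreceptor markers summed to between 7687 and 20777 CPM in the IPs and between 11684 and 31072 CPM in the inputs. Length moved with the IP as well: the 1459 genes with 5 kb or more of exon, which include 3 members (eIF4G2, eIF4G1 and eIF4EHP), had a median log2FC of 0.71, 0.40 and 0.82 in the WT, G298S and YFP IPs, against -0.16, -0.21 and -0.21 for shorter genes. In whole heads, fewer cells of a type and less RNA per cell cannot be told apart, and the part of these cell types or of length in the initiation factor values was not tested.

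**Figure D1:**
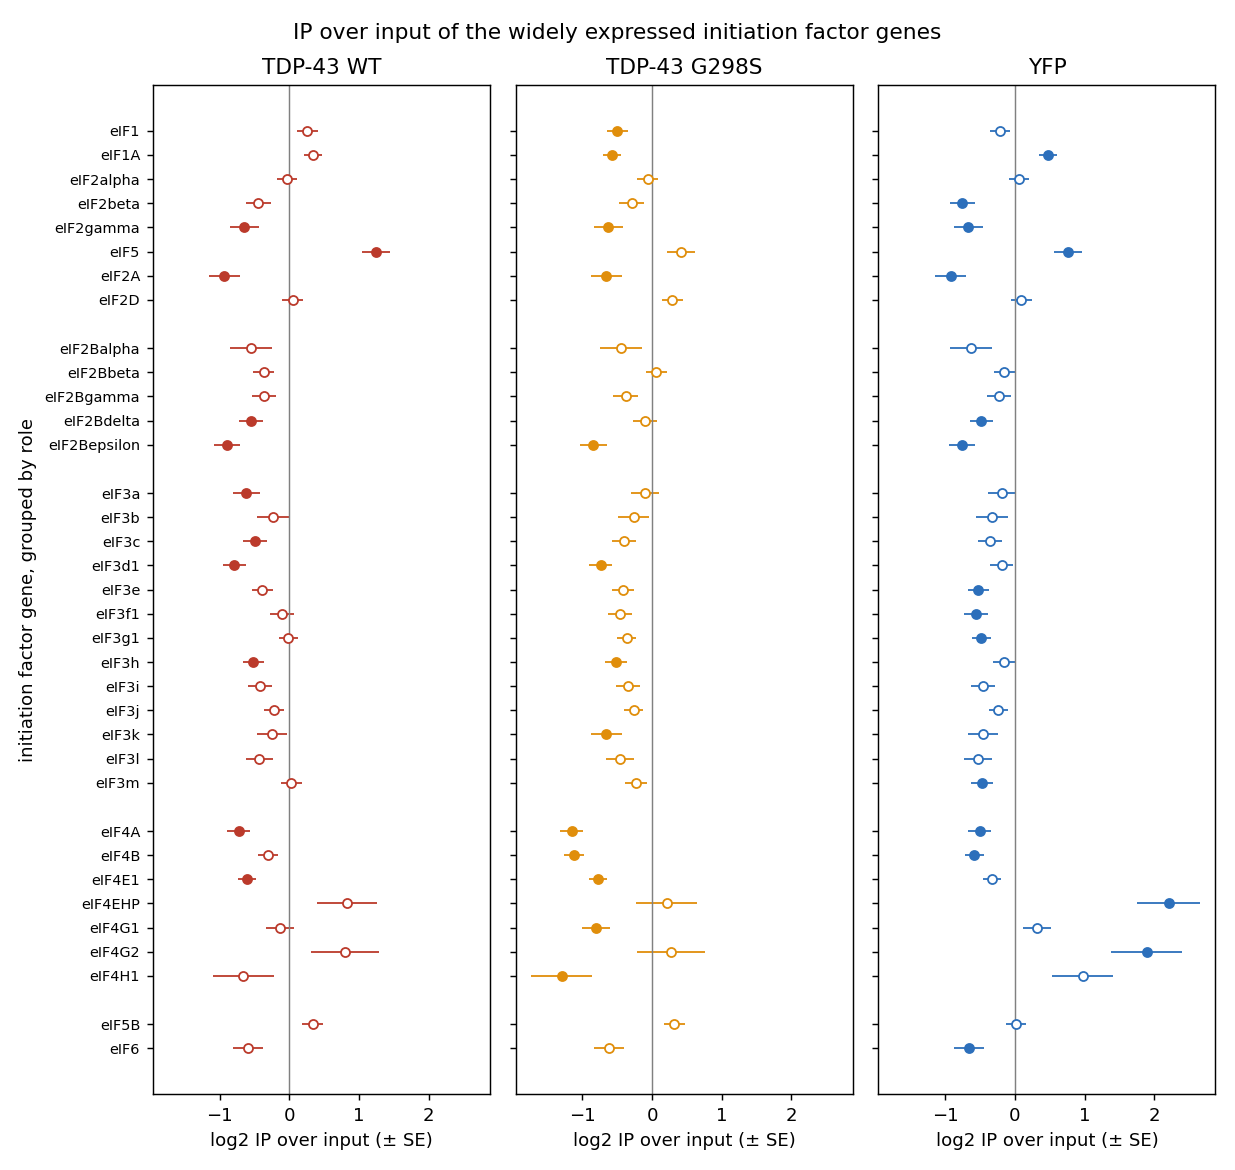
log2 fold change of IP over input for the 35 widely expressed members, with TDP-43 WT on the left, G298S in the middle and YFP on the right. Points are the fitted values by TMM scaling (library sizes alone shift them upward, most with TDP-43 G298S), bars 1 standard error, filled points an adjusted p below 0.05, and genes are grouped by role from scanning factors (top) to subunit joining (bottom). Most points lie left of 0 in all 3 panels, while eIF5 lies right of 0 and eIF4EHP and eIF4G2 lie farthest right in the YFP panel.

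Of the scanning and ternary complex factors, eIF2A and eIF2gamma were called lower in all 3 IPs. eIF2gamma is the subunit of eIF2 that binds GTP and the initiator tRNA. It had 29.0, 25.1 and 27.1 CPM in the WT IPs, 37.9, 29.2 and 26.9 CPM in the G298S IPs and 15.4, 33.6 and 27.2 CPM in the YFP IPs. Its inputs held 44.0, 38.0 and 45.1 CPM with TDP-43 WT, 50.6, 47.5 and 45.4 CPM with G298S and 40.3, 39.5 and 41.4 CPM with YFP. In each genotype every IP was below every input. The log2FC was -0.65 ± 0.21 with TDP-43 WT, -0.63 ± 0.21 with G298S and -0.67 ± 0.21 with YFP (edgeR's quasi-likelihood test, adjusted p = 0.0275, 0.0403 and 0.0262). Of its exon length 16.0% is shared on the same strand with Su(var)3-9, and with the counts of that gene added the TDP-43 G298S call was lost (adjusted p = 0.0577).

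eIF2A is a separate protein that can deliver initiator tRNA without eIF2 in vertebrate cells. Its IPs held 141, 290 and 252 CPM with TDP-43 WT, 200, 275 and 193 CPM with G298S and 188, 182 and 172 CPM with YFP. The inputs held 534, 392 and 378 CPM, 410, 305 and 339 CPM, and 361, 325 and 342 CPM in the same order of genotypes. No IP reached an input of its genotype, and lysate WT-502 had both the lowest IP and the highest input. The log2FC was -0.93 ± 0.22, -0.66 ± 0.22 and -0.92 ± 0.23 in that order, with adjusted p = 0.00526, 0.0465 and 0.00673 by edgeR.

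eIF2beta, the subunit of eIF2 that contacts eIF5 and eIF2B, passed the test only with YFP. It had 48.4, 61.9 and 59.1 CPM in the YFP IPs, against 93.1, 92.0 and 101 CPM in the YFP inputs, with no overlap (log2FC -0.75 ± 0.18, adjusted p = 0.00684 by edgeR). The values with TDP-43 WT (-0.44 ± 0.18) and G298S (-0.29 ± 0.18) missed the threshold, and the differences from YFP were not called. For eIF2alpha, the subunit whose phosphorylation limits initiation under stress, and for eIF2D, which can place initiator tRNA without GTP, no IP was called, with log2FC between -0.06 and 0.29.

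The factor that stood opposite was eIF5, which triggers GTP hydrolysis on eIF2 at the start codon. It had 30.3, 22.9 and 19.7 CPM in the WT IPs, against 9.75, 10.9 and 10.1 CPM in their inputs. With TDP-43 G298S the IPs held 21.6, 13.0 and 18.3 CPM, against 11.8, 13.4 and 13.9 CPM in the inputs. With YFP the IPs held 17.1, 12.6 and 18.1 CPM, against 9.85, 9.41 and 9.01 CPM in the inputs. IP and input did not overlap with TDP-43 WT or YFP and overlapped with G298S, where the IP of G298S-506 was below 2 of the inputs. The log2FC was 1.24 ± 0.20 with TDP-43 WT (edgeR, adjusted p = 0.000263), 0.41 ± 0.20 with G298S (0.165) and 0.76 ± 0.20 with YFP (0.0113), and by the difference itself neither TDP-43 genotype was called against YFP (0.48 ± 0.28, adjusted p = 0.526, and -0.35 ± 0.28, adjusted p = 0.701).

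eIF5 with TDP-43 WT was the 1 member called above a log2FC of 1 in a TDP-43 IP, as 10.5% of all genes were with TDP-43 WT and 7.39% with G298S. Below -1 in the WT IP 0 members were called, against 3.03% of all genes. In the annotation 2588 of its 3203 exon bases (80.8%) are shared on the same strand with CG46312, a gene that had 0 counts in all 27 libraries. Where reads on shared bases are left out of both genes, the eIF5 counts rest on the remaining exon bases. The setting for such reads is not given in the sources used here, and the eIF5 level is therefore not compared with that of other genes.

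eIF1 and eIF1A, the small proteins that hold the scanning ribosome open, were the members whose sign differed between genotypes in every lysate. eIF1A had 277, 341 and 314 CPM in the WT IPs, against 221, 279 and 234 CPM in the inputs. In TDP-43 G298S the IPs held 247, 235 and 268 CPM, against 356, 414 and 346 CPM in the inputs. In YFP the IPs held 342, 313 and 276 CPM, against 221, 235 and 211 CPM in the inputs. The IPs were thus below the inputs with TDP-43 G298S and above them with YFP with no overlap, while with TDP-43 WT the lowest IP lay just under the highest input. The log2FC was 0.34 ± 0.13 with TDP-43 WT (edgeR, adjusted p = 0.058), -0.58 ± 0.13 with G298S (0.00453) and 0.48 ± 0.13 with YFP (0.0122).

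eIF1 had 172, 176 and 199 CPM in the WT IPs, against 136, 171 and 149 CPM in the inputs. With TDP-43 G298S it had 135, 126 and 154 CPM in the IPs, against 202.1, 208 and 177 CPM in the inputs. With YFP it had 159, 228 and 203.1 CPM in the IPs, against 198, 235 and 252 CPM in the inputs. The fractions did not overlap with TDP-43 WT or with G298S, in opposite directions, and overlapped with YFP. Only the G298S value was called, at -0.50 ± 0.15 (edgeR, adjusted p = 0.0244), beside 0.26 ± 0.15 with TDP-43 WT and -0.21 ± 0.15 with YFP.

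**Figure D2:**
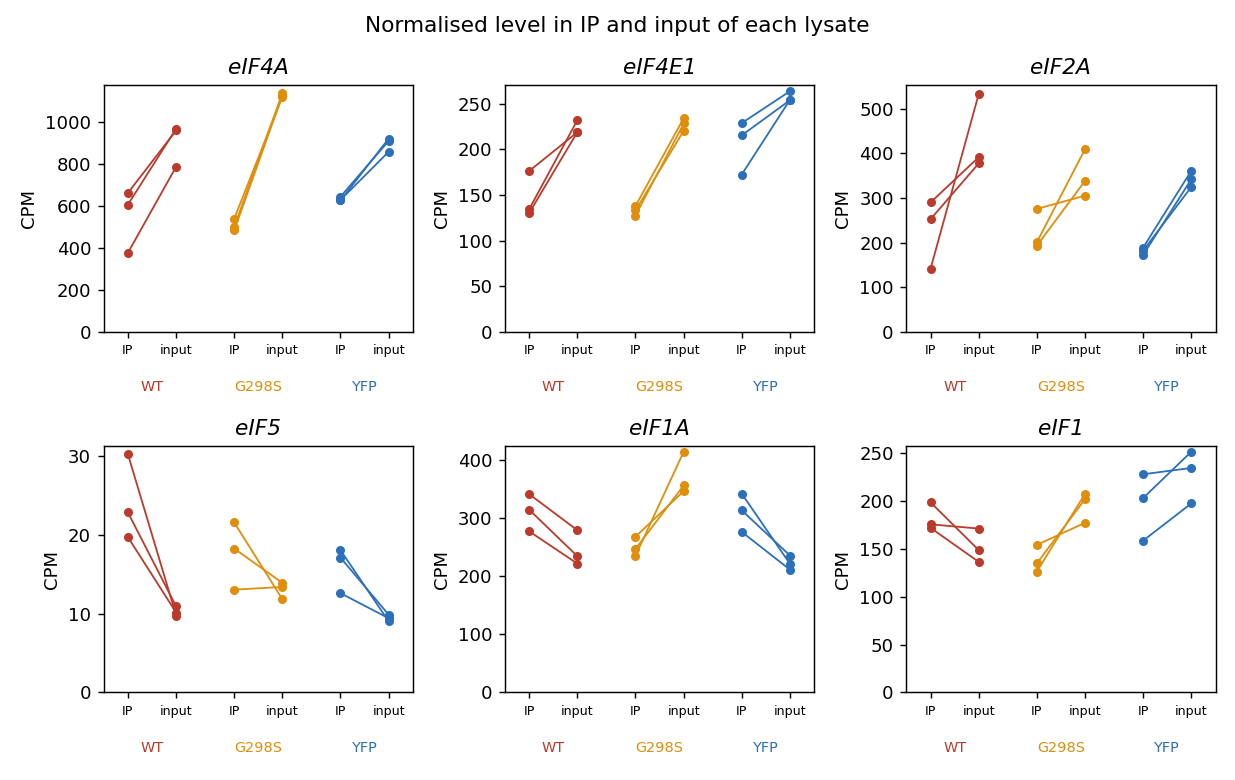
CPM of 6 members in the IP (left) and input (right) of each lysate, with TDP-43 WT in red, G298S in orange and YFP in blue, and a line joining the 2 fractions of 1 lysate. All y axes start at 0. The lines of eIF4A, eIF4E1 and eIF2A run upward to the input in 9 of 9 lysates, those of eIF1A run upward with TDP-43 G298S alone, and eIF5 was higher in the IP in 8 of 9 lysates.

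By TMM scaling all 5 subunits of eIF2B, the complex that reloads eIF2 with GTP, had a log2FC below 0 with TDP-43 WT and with YFP, and 4 of 5 did with G298S. eIF2Bepsilon, the catalytic subunit, was called in all 3 IPs. It had 8.31, 8.49 and 10.6 CPM in the WT IPs, 10.1, 5.51 and 8.90 CPM in the G298S IPs and 9.47, 10.1 and 10.0 CPM in the YFP IPs. The inputs held 17.8, 15.4 and 17.7 CPM, 15.4, 12.9 and 14.5 CPM, and 17.5, 15.7 and 16.9 CPM, all above the IPs. Its log2FC was -0.89 ± 0.19, -0.84 ± 0.20 and -0.76 ± 0.19, with adjusted p = 0.00235, 0.00573 and 0.0084 by edgeR.

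eIF2Bdelta, a regulatory subunit, had 9.16, 12.5 and 10.5 CPM in the WT IPs, against 17.0, 15.7 and 14.4 CPM in the inputs, and 12.1, 10.7 and 12.8 CPM in the YFP IPs, against 16.5, 16.8 and 16.5 CPM in the inputs. Neither pair overlapped, and both were called (-0.55 ± 0.17, adjusted p = 0.021, and -0.48 ± 0.17, adjusted p = 0.0433, by edgeR). Its value with TDP-43 G298S was -0.10 ± 0.17. eIF2Balpha, eIF2Bbeta and eIF2Bgamma had no called IP.

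The eIF3 complex bridges the small subunit and eIF4G, and its 13 widely expressed subunit genes gave IP values below 0 by TMM scaling in all 3 genotypes, except eIF3m with TDP-43 WT (0.03 ± 0.16), and with library sizes alone the called G298S values turned positive. Their levels per length differed widely in the inputs. In WT inputs eIF3i had 116 ± 20.5 and eIF3j 103 ± 20.7 CPM per kb of exon, against 17.0 ± 3.52 for eIF3a, the subunit on which the complex is built (mean ± SD, n = 3). With TDP-43 G298S and YFP eIF3i and eIF3j were also at the top and eIF3a at the bottom. Exon lengths differ too, with 1177 bases for eIF3i, 1363 for eIF3j and 3892 for eIF3a, though eIF3k, with 853, lay between them in level. The part of length in this order was not tested. With TDP-43 WT the SDs of eIF3i and eIF3j overlapped, as did those of eIF3k, eIF3m, eIF3g1 and eIF3h, between 56.1 and 60.5 CPM per kb.

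**Figure D3:**
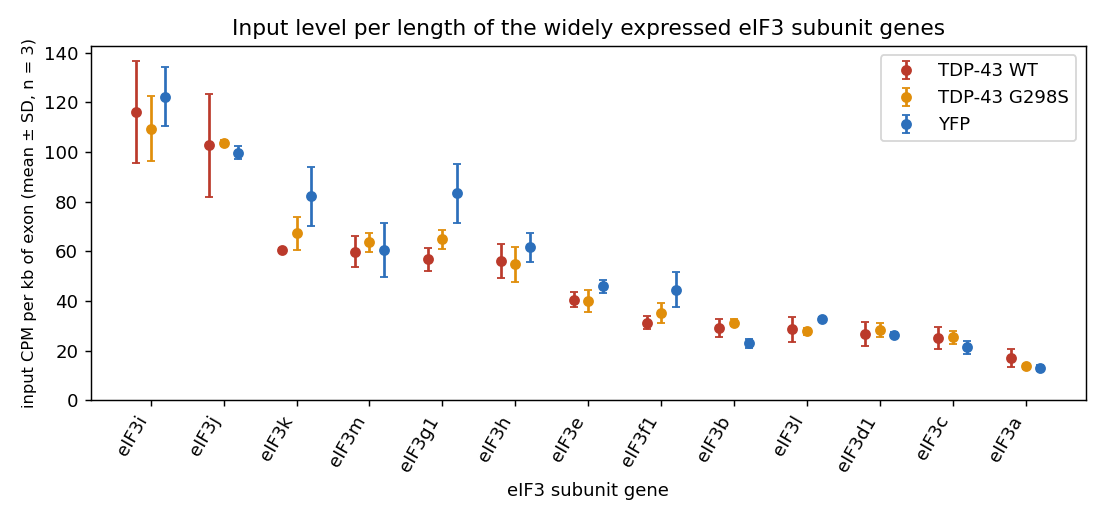
Input CPM per kb of exon (mean ± SD, n = 3 lysates) for the 13 widely expressed eIF3 subunit genes, with TDP-43 WT left, G298S in the middle and YFP right of each trio. eIF3i and eIF3j are highest and eIF3a lowest in all 3 genotypes, and eIF3g1 lies higher with YFP than with TDP-43 WT.

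eIF3d1, a subunit that can itself bind the cap in human cells, and eIF3h were called lower in both TDP-43 IPs and not with YFP. eIF3d1 had 25.7, 32.8 and 34.8 CPM in the WT IPs, against 61.6, 42.6 and 57.2 CPM in the inputs. With TDP-43 G298S it had 30.8, 37.7 and 34.0 CPM in the IPs, against 62.9, 57.3 and 51.6 CPM in the inputs. With YFP it had 54.7, 43.5 and 41.9 CPM in the IPs, against 52.3, 51.7 and 55.8 CPM in the inputs. Only the YFP fractions overlapped. The log2FC was -0.79 ± 0.16 with TDP-43 WT (adjusted p = 0.00177), -0.74 ± 0.16 with G298S (0.00427) and -0.19 ± 0.16 with YFP (0.437), yet the differences from YFP were not called (-0.60 ± 0.23, adjusted p = 0.296, and -0.55 ± 0.23, adjusted p = 0.299, by edgeR).

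eIF3h had 57.7, 54.7 and 64.0 CPM in the WT IPs, against 95.3, 81.1 and 75.3 CPM in the inputs, and 49.8, 53.8 and 67.8 CPM in the G298S IPs, against 93.9, 78.2 and 73.8 CPM in the inputs. Its YFP IPs, at 82.7, 95.8 and 69.4 CPM, overlapped the YFP inputs, at 86.8, 87.0 and 102 CPM. The log2FC was -0.51 ± 0.16 with either TDP-43 form (adjusted p = 0.0222 with TDP-43 WT and 0.0281 with G298S, by edgeR) and -0.16 ± 0.16 with YFP. Of its exon length 16.8% is shared with senju on the opposite strand, and without strand the reads of the pair cannot be told apart.

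Other subunits passed in a single genotype. With TDP-43 WT, eIF3a was called at -0.61 ± 0.20, from 40.7, 56.3 and 32.7 CPM in the IPs and 81.3, 54.6 and 62.6 CPM in the inputs, which overlap, and its value was 0.047 against the unbound fraction. eIF3c, a core subunit, had 51.9, 61.7 and 63.2 CPM in those IPs, against 74.2, 74.5 and 100.1 CPM in the inputs, with no overlap (-0.49 ± 0.17, adjusted p = 0.0424 by edgeR). With TDP-43 G298S, eIF3k had 30.0, 28.9 and 49.4 CPM in the IPs, against 63.9, 55.3 and 53.1 CPM in the inputs, also with no overlap (-0.66 ± 0.22, adjusted p = 0.0396 by edgeR).

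With YFP alone 4 subunits were called. eIF3e had 50.6, 49.1 and 45.7 CPM in the IPs, against 72.0, 65.1 and 71.9 CPM in the inputs (-0.53 ± 0.15). eIF3f1 had 31.4, 46.7 and 40.1 CPM, against 48.8, 58.0 and 67.2 CPM (-0.56 ± 0.17), and eIF3g1, which also binds mRNA, 52.7, 69.4 and 62.0 CPM, against 75.1, 82.8 and 98.9 CPM (-0.48 ± 0.14). The YFP IPs of these genes all lay below the YFP inputs, as did those of eIF3m, with 56.3, 79.9 and 71.7 CPM against 82.4, 90.5 and 116 CPM (-0.47 ± 0.16). The adjusted p by edgeR was 0.0186 for eIF3e, 0.0244 for eIF3f1, 0.0161 for eIF3g1 and 0.0369 for eIF3m. No member of the complex was called in a difference between genotypes.

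Among the cap-binding group, eIF4A, the helicase of eIF4F and the most abundant member, was called lower in all 3 IPs. It had 376, 662 and 606 CPM in the WT IPs, 483, 538 and 499 CPM in the G298S IPs and 626, 643 and 628 CPM in the YFP IPs. The inputs held 787, 960 and 969 CPM with TDP-43 WT, 1128, 1122 and 1139 CPM with G298S and 921, 911 and 859 CPM with YFP, all above the IPs. The log2FC was -0.73 ± 0.16, -1.16 ± 0.17 and -0.50 ± 0.16 in that order (edgeR, adjusted p = 0.00336, 0.000143 and 0.0329), and neither TDP-43 form was called against YFP (-0.22 ± 0.23, adjusted p = 0.785, and -0.65 ± 0.23, adjusted p = 0.203).

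eIF4E1, the main cap-binding protein, had 130, 134 and 176 CPM in the WT IPs and 133, 127 and 138 CPM in the G298S IPs. The inputs held 219, 232 and 219 CPM with TDP-43 WT and 221, 229 and 234 CPM with G298S. With YFP the IPs held 172, 229 and 215 CPM, against 255, 264 and 254 CPM in the inputs. Every IP lay below the inputs in all 3 genotypes, by -0.60 ± 0.13 with TDP-43 WT (edgeR, adjusted p = 0.00218), -0.78 ± 0.13 with G298S (0.000498) and -0.32 ± 0.13 with YFP, which missed the threshold (0.0763).

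eIF4B, a cofactor of the helicase, had 41.0, 37.7 and 54.4 CPM in the G298S IPs, against 89.5, 99.5 and 102 CPM in the inputs. In YFP it had 51.9, 57.8 and 52.1 CPM in the IPs, against 81.6, 83.6 and 76.8 CPM in the inputs. Both were called without overlap, at -1.12 ± 0.15 (adjusted p = 6.22e-05) and -0.58 ± 0.14 (0.00722) by edgeR. With TDP-43 WT the IPs held 62.5, 71.3 and 71.3 CPM and the inputs 91.5, 90.4 and 71.2 CPM, and the value was not called (-0.30 ± 0.14). Together with eIF4A and eIF4H1, eIF4B was past a log2FC of -1 with TDP-43 G298S, which 2.44% of all genes were.

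The cap-binding repressor eIF4EHP and the scaffold gene eIF4G2 went the other way with YFP. eIF4EHP had 195, 124 and 93.2 CPM in the WT IPs, against 79.0, 97.0 and 55.5 CPM in the inputs, and 141, 86.2 and 107 CPM in the G298S IPs, against 97.1, 103 and 87.1 CPM in the inputs. With YFP the IPs held 310, 54.5 and 132 CPM, against 38.1, 39.4 and 30.0 CPM in the inputs. Its IPs varied most in YFP, where all 3 still lay above the inputs. The log2FC was 2.21 ± 0.45 with YFP (edgeR, adjusted p = 0.00223), 0.83 ± 0.44 with TDP-43 WT and 0.21 ± 0.43 with G298S. The YFP value was 1.43 without YFP-901 (adjusted p = 0.0349), 1.69 with the counts of the overlapping Syx1A added, and 0.93 against the unbound fraction, where it was not called (0.209). With YFP it and eIF4G2 were the 2 members called above a log2FC of 1, against 10.3% of all genes.

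eIF4G2 had 108, 47.4 and 44.8 CPM in the WT IPs, against 28.6, 45.6 and 40.3 CPM in the inputs, and 56.8, 40.0 and 63.8 CPM in the G298S IPs, against 41.7, 48.6 and 42.1 CPM in the inputs. With YFP it had 84.7, 11.7 and 33.4 CPM in the IPs, against 13.2, 13.2 and 8.61 CPM in the inputs. The IP of YFP-902 lay below 2 of the YFP inputs, so the fractions overlapped. It was called with YFP (1.89 ± 0.51, adjusted p = 0.0127 by edgeR) and not with TDP-43 WT (0.80 ± 0.49) or G298S (0.28 ± 0.49). The YFP call was lost without YFP-901 (1.06, adjusted p = 0.17) or YFP-201 (1.87, 0.0574) and against the unbound fraction (0.78, 0.354), and the value was 1.24 with the counts of the overlapping CG33111 added.

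eIF4G1, the main scaffold, and eIF4H1, a further cofactor of the helicase, were called lower with TDP-43 G298S. eIF4G1 had 137, 101 and 108 CPM in those IPs, against 191, 217 and 195 CPM in the inputs (-0.80 ± 0.20, adjusted p = 0.00976 by edgeR). eIF4H1 had 65.6, 36.1 and 59.0 CPM, against 150, 126 and 116 CPM (-1.30 ± 0.44, adjusted p = 0.044 by edgeR). Neither gene overlapped between these fractions. Against the unbound fraction the eIF4G1 value was 0.41, with the opposite sign.

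Of the last group, eIF5B had no called IP, with values of 0.34 ± 0.15 with TDP-43 WT, 0.32 ± 0.15 with G298S and 0.01 ± 0.15 with YFP. eIF6, which keeps the ribosomal subunits apart, had 7.54, 8.61 and 6.71 CPM in the YFP IPs, against 11.5, 11.99 and 12.7 CPM in the YFP inputs, with no overlap (-0.66 ± 0.22, adjusted p = 0.0327 by edgeR). Its values with TDP-43 WT and G298S, -0.59 ± 0.22 and -0.62 ± 0.22, missed the threshold at adjusted p = 0.0513 and 0.0517.

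To ask what was carried by TDP-43 beyond YFP alone, the IP over input values were subtracted between genotypes in the same model. For TDP-43 WT minus YFP 0 of 43 members were called, 6 had an unadjusted p below 0.05, and DESeq2 called 0, against 1.45% of all genes (1.35% higher and 0.108% lower). For TDP-43 G298S minus YFP 1 was called lower, against 0.797% of all genes (0.395% higher and 0.402% lower), with 5 by DESeq2 and 9 called higher with library sizes alone. For TDP-43 WT minus G298S 1 was called higher, against 0.263% of all genes (0.255% higher and 0.00774% lower). The 1 member was eIF1A in both. These comparisons share libraries, since both use the same TDP-43 G298S lysates.

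The eIF1A difference was -1.06 ± 0.18 for TDP-43 G298S minus YFP (edgeR, adjusted p = 0.0185) and 0.92 ± 0.18 for TDP-43 WT minus G298S (0.0496), while TDP-43 WT minus YFP was -0.14 ± 0.18 (0.855). Per lysate the log2 of IP over input was -0.53, -0.82 and -0.37 with TDP-43 G298S, against 0.32, 0.29 and 0.43 with TDP-43 WT and 0.63, 0.41 and 0.39 with YFP. The separation is thus wider than the spread of the lysates, but the call is not stable. It was lost for TDP-43 G298S minus YFP when any one of the 6 TDP-43 G298S or YFP lysates was left out (adjusted p between 0.0626 and 0.19). With the unbound fraction in place of the input the difference was 0.021 (adjusted p = 0.98). The difference between TDP-43 WT and G298S was lost in 17 of 19 alternatives, the lysate block among them (adjusted p = 0.148).

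eIF1 had the signs of eIF1A with TDP-43 WT and G298S but not with YFP, and no difference was called. Its log2 IP over input was 0.33, 0.04 and 0.42 in the TDP-43 WT lysates, against -0.58, -0.72 and -0.20 in the G298S lysates and -0.32, -0.04 and -0.31 in the YFP lysates. The differences were 0.76 ± 0.21 for TDP-43 WT minus G298S (edgeR, adjusted p = 0.279) and 0.47 ± 0.21 for TDP-43 WT minus YFP (0.368).

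The inputs themselves differed between genotypes. For TDP-43 WT over YFP 3 members were called higher and 2 lower, against 15.0% of all genes called (7.58% higher and 7.37% lower), and for G298S over YFP 5 higher and 2 lower, against 27.4% of all genes (15.4% higher and 12% lower). For TDP-43 WT over G298S 0 were called, 3 had an unadjusted p below 0.05, and DESeq2 called 1, against 0.248% of all genes (0.139% higher and 0.108% lower). With library sizes alone the calls for TDP-43 G298S over YFP were 4 higher and 17 lower. Members that rose were eIF4G1, eIF4G2 and eIF4H1 in both TDP-43 genotypes, and eIF4EHP and eIF1A with TDP-43 G298S.

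The input levels of eIF4G1 were 130, 151 and 127 CPM with TDP-43 WT, 191, 217 and 195 CPM with G298S and 97.2, 89.7 and 64.3 CPM with YFP. No pair of genotypes overlapped. The log2FC over YFP was 0.70 ± 0.20 for TDP-43 WT (edgeR, adjusted p = 0.0327) and 1.26 ± 0.21 for G298S (0.00083), and TDP-43 WT over G298S was not called (-0.56 ± 0.20, adjusted p = 0.359).

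For eIF4H1 the inputs held 57.8, 124 and 61.4 CPM with TDP-43 WT, 150, 126 and 116 CPM with G298S and 30.6, 31.7 and 21.1 CPM with YFP. Both TDP-43 genotypes lay above YFP without overlap, by 1.55 ± 0.44 (adjusted p = 0.0301) and 2.23 ± 0.45 (0.00268). The eIF4G2 inputs listed above were likewise separated, at 1.71 ± 0.51 for TDP-43 WT (0.0354) and 1.92 ± 0.51 for G298S (0.012), and eIF4EHP was called for G298S at 1.42 ± 0.44 (0.0263), all by edgeR. Both genes share exon bases on the same strand with a neighbour (8.56% of eIF4G2 with CG33111, 6.96% of eIF4EHP with Syx1A), and with the neighbour's counts added the eIF4G2 call for TDP-43 WT (adjusted p = 0.0679) and the eIF4EHP call for G298S (0.076) were lost. For eIF1A the G298S inputs lay above those of YFP by 0.74 ± 0.13 (0.00121), which is the side of the ratio in which eIF1A differed most.

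In the other direction, eIF1 was lower in WT inputs than in YFP inputs by -0.58 ± 0.15 (edgeR, adjusted p = 0.0187). eIF3g1 was lower by -0.55 ± 0.14 (0.0158), with 52.9, 60.9 and 61.3 CPM in WT inputs, against 75.1, 82.8 and 98.9 CPM in YFP inputs. In G298S inputs eIF2D had 28.3, 25.9 and 24.5 CPM, against 41.1, 45.0 and 44.0 CPM in YFP inputs (-0.73 ± 0.15, adjusted p = 0.00274). eIF2Bbeta, the partner of eIF2Bdelta in the regulatory core, had 30.4, 26.9 and 27.6 CPM, against 44.9, 44.1 and 49.9 CPM (-0.71 ± 0.15, adjusted p = 0.00354 by edgeR). None of these 4 pairs overlapped.

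**Figure D4:**
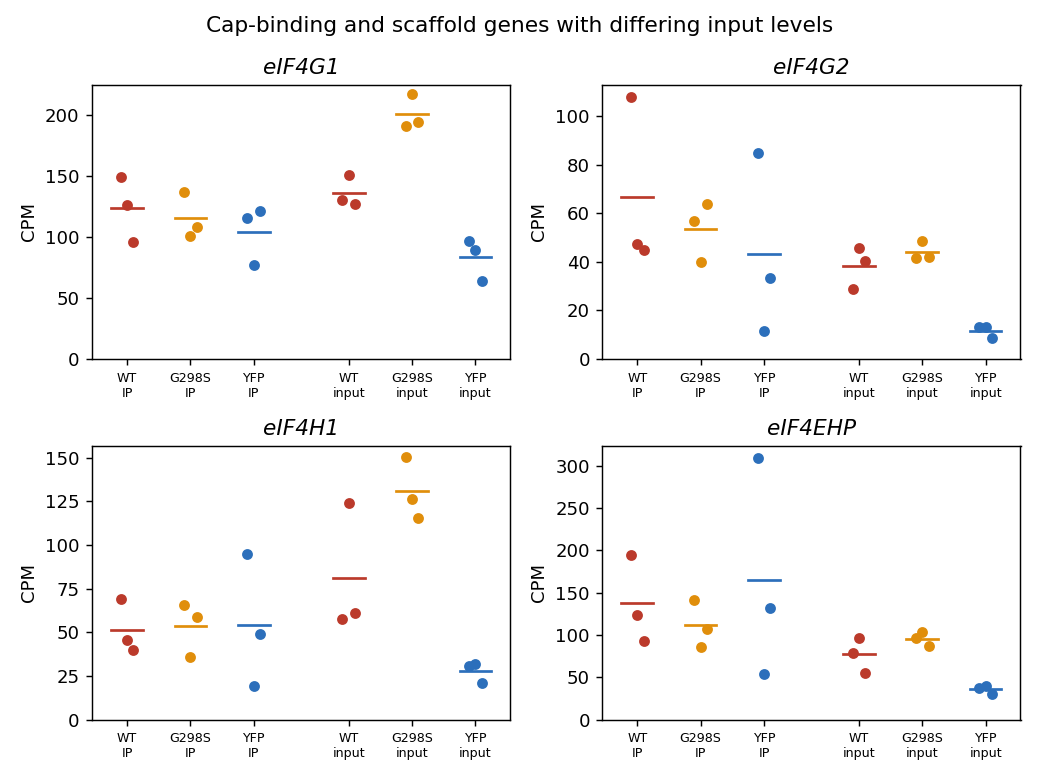
CPM of eIF4G1, eIF4G2, eIF4H1 and eIF4EHP in the IPs (left trio) and inputs (right trio) of TDP-43 WT, G298S and YFP, with 1 point per lysate and a line at the mean of 3. The y axes start at 0. Inputs with YFP lie below those of both TDP-43 genotypes in every panel, while the IPs of the 3 genotypes overlap.

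Most of the members that rose in the inputs are long, but eIF1A, with 1720 exon bases, is not. eIF4G2 has 9097 exon bases, eIF4G1 6565, eIF4EHP 6418 and eIF4H1 4430, which is under the limit of 5 kb used next. Among all tested genes the 1459 with an exon length of 5 kb or more had a median input log2FC over YFP of 0.52 with TDP-43 WT and 0.76 with G298S, against 0.07 and 0.01 for shorter genes. The part of length in these values was not tested. The labels of the libraries start with a number that is not the same for all lysates. One lysate of each genotype, WT-202, G298S-203 and YFP-201, shares 1 label number, and within these the input levels were 127, 195 and 64.3 CPM for eIF4G1, 40.3, 42.1 and 8.61 CPM for eIF4G2, 61.4, 116 and 21.1 CPM for eIF4H1 and 234, 346 and 211 CPM for eIF1A. The direction is that of the whole set, and with 1 lysate a genotype there is no test within this number. Outside it, the TDP-43 lysates of both forms carry a number that no YFP lysate has. The remaining YFP lysates carry a number that no TDP-43 lysate has. Among these lysates, genotype and label number cannot be told apart when TDP-43 is compared with YFP. This applies to the inputs and to the differences from YFP in the IPs. With the label number as a covariate the YFP side of the comparison rests on YFP-201 alone. The log2FC of TDP-43 WT over YFP was then 1.01 for eIF4G1, 2.15 for eIF4G2 and 1.65 for eIF4H1. These values largely repeat the levels within the shared number and are not a separate check on it. For TDP-43 WT over YFP 8 members were called higher without YFP-201, and 0 without WT-505, WT-202 or G298S-203, while for G298S over YFP 12 were called higher without YFP-201.

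The unbound fraction was set against the input in a model of all 27 libraries, which tested 13349 genes and 44 members. With TDP-43 WT 6 members were called higher in the unbound fraction and 2 lower, against 16.9% of all genes called (9.10% higher and 7.80% lower), and with G298S 9 were called higher and 1 lower, against 18.4% of all genes (9.63% higher and 8.79% lower). With YFP 0 members were called, as were 0% of all genes, 6 members had an unadjusted p below 0.05, and DESeq2 called 2. In each fit without 1 of the TDP-43 G298S lysates 0 members were called with TDP-43 G298S.

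Of the genes that rose, 4 of 6 with TDP-43 WT and 5 of 9 with G298S encode eIF3 subunits, as do 16 of the 44 members tested. On the scale of this model, eIF3g1 had 102, 95.7 and 68.8 CPM unbound and 47.3, 58.9 and 52.1 CPM in the input with TDP-43 WT, and 99.9, 98.9 and 95.5 CPM unbound and 69.4, 56.2 and 59.3 CPM in the input with G298S. Neither pair overlapped (0.75 ± 0.17, adjusted p = 0.00759, and 0.67 ± 0.17, adjusted p = 0.0235, by edgeR). eIF3k had 98.7, 93.9 and 66.4 CPM unbound, against 46.3, 49.0 and 44.3 CPM in the input, with TDP-43 WT (0.89 ± 0.22, adjusted p = 0.0121). With TDP-43 G298S eIF3k was also called (0.68 ± 0.22, adjusted p = 0.0399 by edgeR). eIF3h and eIF2Bbeta were called higher with both TDP-43 forms, eIF1 and eIF3f1 with TDP-43 WT, and eIF2beta, eIF2D, eIF3e, eIF3i and eIF6 with G298S. Over the same contrasts 83 of 92 cytosolic ribosomal protein genes were called higher with TDP-43 WT and 42 of 92 with G298S.

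eIF4G1 went the opposite way, with 52.6, 94.7 and 54.8 CPM unbound and 116, 146 and 108 CPM in the input with TDP-43 WT (-0.87 ± 0.25, adjusted p = 0.0243 by edgeR). With TDP-43 G298S it had 107, 58.1 and 89.5 CPM unbound, against 187, 192 and 178 CPM in the input (-1.12 ± 0.26, adjusted p = 0.0235). With YFP it had 90.8, 93.4 and 135 CPM unbound, against 86.4, 82.5 and 67.8 CPM in the input, so the 3 YFP lysates lay on the other side, at 0.43 ± 0.25 without a call. Long genes as a class, with 5 kb or more of exon, had a median log2FC of -0.78 (TDP-43 WT), -0.88 (G298S) and 0.21 (YFP) here. Shorter genes had 0.17, 0.23 and -0.12 in the same order. The part of length in the eIF4G1 values was not tested. eIF3a was called lower with TDP-43 WT (-0.60 ± 0.20, adjusted p = 0.0406 by edgeR).

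The 9 low-abundance paralogs were set apart after their values were seen, so no test is given for them as a group. They are second copies of eIF3 subunits (eIF3d2, eIF3f2, eIF3g2), of the cap-binding protein (eIF4E3 to eIF4E7) and of eIF4H (eIF4H2), and several of them are known from the fly testis. Their summed level in the inputs was 41.1, 8.36 and 68.5 CPM with TDP-43 WT, 14.0, 41.1 and 32.8 CPM with G298S and 0.767, 0.543 and 15.9 CPM with YFP. The ranges of the TDP-43 genotypes overlapped, and YFP-201 lay within them while YFP-901 and YFP-902 lay below. In the IPs the sum was 12.9, 6.09 and 32.8 CPM with TDP-43 WT, 4.20, 17.3 and 12.9 CPM with G298S and 0, 0.481 and 4.95 CPM with YFP. On the scale of these sums eIF4E4 was the highest of them, with up to 18.7 CPM in the input of WT-202. eIF4E6, which failed the filter on low counts in the model of 18 libraries, had at most 52 counts.

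A list of testis markers, of which 11 genes were found, moved with them. It summed to 287, 81.1 and 605 CPM in WT inputs, 136, 457 and 327 CPM in G298S inputs and 0.274, 0.247 and 140 CPM in YFP inputs. In the inputs of YFP-901 and YFP-902, 10 and 9 of the 11 markers were at 0, and in all other inputs none was. Their part in the paralog levels was not tested. None of the 9 paralogs was called in any IP or input contrast, and 8 of them were tested there. Without the 9, the median log2FC over the other 35 members was -0.36 with TDP-43 WT, -0.42 with G298S and -0.33 with YFP.

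**Figure D5:**
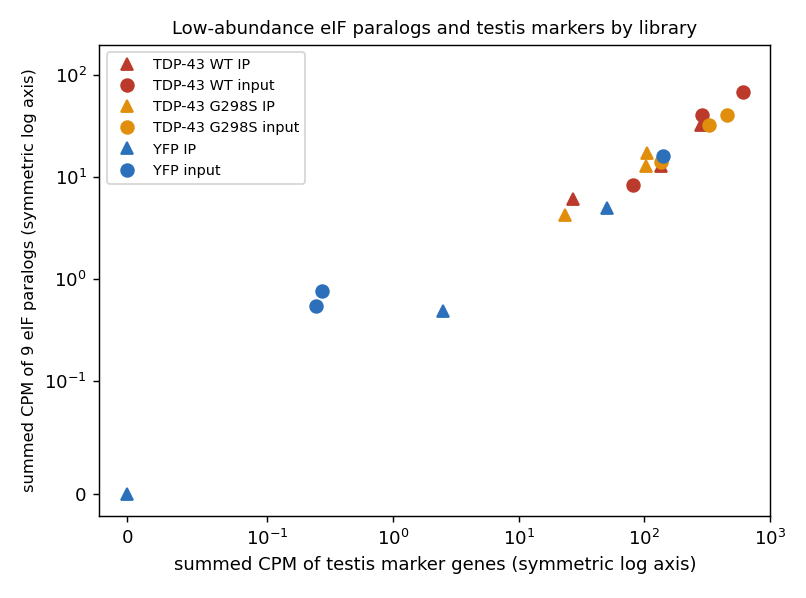
Summed CPM of the 9 low-abundance paralogs (y axis) against summed CPM of the testis markers (x axis) in the 9 IPs (triangles) and 9 inputs (circles). CPM were scaled over all 27 libraries, and the symmetric log axes include 0. TDP-43 WT is red, G298S orange and YFP blue. Both sums were at 0 in the IP of YFP-901 and were highest in the input of WT-202, at 68.5 and 605 CPM.

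Within the eIF4E family the share of eIF4E1, per length, was between 58.8% and 91.9% in the IPs and between 63.1% and 94.6% in the inputs, out of the summed CPM per kb of 7 genes. eIF4EHP held between 7.62% and 38.5% in the IPs and between 3.63% and 12.3% in the inputs. Its highest share was that of the YFP-901 IP alone, beside 7.62% and 17.0% in the IPs of YFP-902 and YFP-201. The lowest input share of eIF4E1 was in WT-202, where the low-abundance paralogs eIF4E4 and eIF4E5 held 13.7% and 9.68%.

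The genes around initiation were described as lists. Of 22 regulators tested, 5 were called higher and 3 lower in the WT IP, 5 and 8 in the G298S IP, and 8 and 4 in the YFP IP, beside the shares of all genes given above for these contrasts (16.3% higher and 11.5% lower, 12.6% and 9.95%, and 15.9% and 9.99%). Thor, the fly eIF4E-binding protein that blocks eIF4G, was higher in all 3, at 1.67 ± 0.26, 1.48 ± 0.26 and 1.05 ± 0.25 (edgeR, adjusted p = 0.000179, 0.000665 and 0.0064). PPP1R15, which directs the removal of phosphate from eIF2alpha, was higher by 1.15 ± 0.14, 1.29 ± 0.14 and 1.17 ± 0.14 (1.81e-05, 1.09e-05 and 3.63e-05). pAbp, the poly(A)-binding protein that contacts eIF4G, was lower with TDP-43 WT at -2.51 ± 0.36 (0.000108) and with G298S at -3.07 ± 0.37 (3.43e-05), beside -0.76 ± 0.34 with YFP (0.122). Its log2 IP over input per lysate was -2.56, -2.77 and -2.12 with TDP-43 WT, -3.28, -3.37 and -2.63 with G298S and -0.21, -2.16 and -0.50 with YFP, so that YFP-902 lay within the range of the TDP-43 WT lysates.

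Of these regulators pAbp and bru1, a repressor of translation, were called for TDP-43 G298S minus YFP, at -2.31 ± 0.49 (edgeR, adjusted p = 0.0419) and -1.29 ± 0.25 (0.0264). Against the unbound fraction the values were -0.04 and 0.52, and both calls were lost without any one TDP-43 G298S lysate. The 2 genotypes differed more in the inputs than in the IPs. For bru1 the mean was 142 CPM in the G298S IPs and 146 CPM in the YFP IPs, against 133 and 56.0 CPM in the inputs. For pAbp it was 364 and 496 CPM in the IPs, against 3052 and 841 CPM in the inputs. In the inputs, 12 regulators were higher and 3 lower for TDP-43 G298S over YFP, and 6 and 3 for TDP-43 WT over YFP, against 15.4% of all genes higher and 12% lower, and 7.58% and 7.37%. Higher for both were 4E-T, Pdcd4, pAbp, Paip2, bel and bru1, and higher for G298S alone by its own test were mxt, Lk6, NAT1, S6k, Fmr1 and larp. MCTS1 and DENR, partners that recycle ribosomal subunits, were lower for both, while Thor was lower for TDP-43 WT and PPP1R15 for G298S.

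Of 10 elongation and termination factors, 6 were called lower and 1 higher in the WT IP, 7 lower in the G298S IP and 7 lower in the YFP IP. The 1 higher was eEF5, whose product was long called eIF5A. Its log2 IP over input was 0.28, 0.58 and 0.25 in TDP-43 WT lysates, against -0.47, -0.53 and -0.29 in G298S lysates and -0.62, -0.33 and -0.49 in YFP lysates. The TDP-43 WT lysates did not overlap with those of the other genotypes. TDP-43 WT minus YFP was called at 0.85 ± 0.18 (edgeR, adjusted p = 0.0254) but not with the lysate as a block (0.0712), and TDP-43 WT minus G298S was not called (0.80 ± 0.18, 0.103). Its input was lower with TDP-43 WT than with YFP by -0.65 ± 0.13 (0.00492), and against the unbound fraction the difference was -0.10. Input calls in this list were eRF3, higher for both TDP-43 genotypes over YFP, and eEF1alpha1 and eEF1beta, higher for TDP-43 G298S over YFP. Of 89 cytosolic ribosomal protein genes, 6 were called lower in the WT IP, 55 in the G298S IP and 19 in the YFP IP by TMM scaling. Both lists stand beside 11.5%, 9.95% and 9.99% of all genes called lower in the same order, and 16.3%, 12.6% and 15.9% called higher.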

How the data were processed

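Libraries were made by the authors with SMART-Seq HT PLUS, which keeps no strand, and sequenced on a NovaSeq. Per the labels and the methods, the authors trimmed reads (cutadapt 2.7), aligned them (STAR 2.6.1d) and counted them per gene (featureCounts 1.6.3), with base calls by bcl2fastq 2.19.1.403 in the submitters' processing notes. The authors deposited whole-number counts without normalization in 1 table. The genome release and the settings for strand and for reads on several genes are not given in the sources used here.

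Symbols, exon lengths and overlaps came from Ensembl release 115, which gave a symbol for 17425 of 17529 identifiers, all but 104. Tests used edgeR 4.0.16 (R 4.3.3) with TMM scaling, its filter on low counts by group, and a quasi-likelihood fit to 18 IP and input libraries in 6 groups, or to 27 libraries in 9 groups for unbound over input. Log CPM values per lysate used a prior count of 2. Scripts were tested on simulated data. The replicates are separate lysates.

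All members are accounted for. Values per library are given for members called in an IP, difference or input contrast (up to 12 a contrast). Where none was called, the 3 with the largest difference were chosen, but low-abundance paralogs among them are given per library only as part of a sum. Other pathway genes are named where called in a difference or an input contrast. Members, lists and tests were chosen with earlier results of these data known.

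Per the methods, a part of each lysate was kept as input and the rest was used for the IP. Input, IP and unbound libraries with 1 lysate number in their labels were taken to come from 1 lysate. After subtraction of group means their correlation across genes was 0.07 to 0.75 for input and IP, 0.68 to 0.92 for input and unbound and 0.04 to 0.74 for IP and unbound. The lysate block was an alternative. Further alternatives were DESeq2 1.42.0, edgeR with DESeq2 size factors or with library sizes alone, omitting the filter, at least 10 counts in every library, no mitochondrially encoded and rRNA genes, 27 libraries for the IP contrasts, the unbound fraction as the reference, the label number as a covariate and each lysate left out. Adding the counts of same-strand overlapping genes was chosen after seeing the data. Counting error alone understates the error, since reads carry no molecular identifiers.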

Additional observations from a re-analysis of the deposited data

Results flagged for a closer look

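These values are given because they differ between genotypes, either by the test of the difference or because every lysate of a genotype lay on 1 side of 0 and every lysate of the other on the opposite side. In the IPs, eIF1A was past the threshold for TDP-43 G298S minus YFP (-1.06, adjusted p = 0.0185 by edgeR) and for TDP-43 WT minus TDP-43 G298S (0.92, 0.0496), and every lysate had opposite signs in both. eIF1 had opposite signs in every lysate for TDP-43 WT minus YFP (0.47, 0.368) and for TDP-43 WT minus TDP-43 G298S (0.76, 0.279) and was not called. Among genes outside the family, eEF5 was called for TDP-43 WT minus YFP (0.85, 0.0254) and had opposite signs for TDP-43 WT minus TDP-43 G298S (0.80, 0.103), and pAbp (-2.31, 0.0419) and bru1 (-1.29, 0.0264) were called for TDP-43 G298S minus YFP.

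For unbound over input the differences between genotypes were not tested, and the genes below had opposite signs in every lysate. How many of all genes had such signs, here or in the IPs, was not counted, so the signs are no result about the members. Genes with 5 kb or more of exon had medians of -0.78 (TDP-43 WT), -0.88 (G298S) and 0.21 (YFP) in this contrast. For TDP-43 WT minus YFP they were eIF4G1 (-1.33), eIF4EHP (-1.78), eIF4G2 (-2.48) and eIF4H1 (-2.36). For TDP-43 G298S minus YFP they were eIF4G1 (-1.58), eIF4EHP (-2.08), eIF4G2 (-2.44), eIF4H1 (-2.60), eIF1A (-0.90), eIF5 (-0.75) and eIF2Bdelta (0.63). For TDP-43 WT minus TDP-43 G298S they were eIF5 (0.36), eIF2A (-0.65) and eIF2Bdelta (-0.42).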

How the results depend on the processing

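Over 81 values of named members and 1412 alternatives, 1090 kept their direction and side of the threshold, 304 fell short of it, 1 newly passed and 17 changed sign. With library sizes alone the TDP-43 G298S IP values became 0.032 for eIF2Bepsilon, 0.22 for eIF2A, 0.37 for eIF3h, 0.30 for eIF1A, 0.23 for eIF3k, 0.069 for eIF4G1, 0.15 for eIF3d1, 0.25 for eIF2gamma, 0.38 for eIF1, 0.10 for eIF4E1 and 0.44 for eEF5. With the unbound fraction as the reference they became 0.047 for eIF3a and -0.62 for eEF5 (TDP-43 WT), 0.41 for eIF4G1 (TDP-43 G298S) and -0.27 for eIF1A (YFP), and the differences from YFP -0.10 for eEF5 (TDP-43 WT) and 0.021 for eIF1A and 0.52 for bru1 (TDP-43 G298S). With 1 lysate left out, TDP-43 WT minus YFP ran from -0.70 to 5.31 for eIF3f2 and from -2.18 to 2.63 for eIF4H2, and unbound over input with YFP from -1.72 to 3.13 for eIF3d2, with the changed sign without YFP-201 in all 3.

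Members called also moved. DESeq2 called 18 in the TDP-43 WT IP, 5 for TDP-43 G298S minus YFP, 2 for TDP-43 WT minus TDP-43 G298S, 10, 12 and 1 in the inputs (TDP-43 WT over YFP, TDP-43 G298S over YFP, TDP-43 WT over TDP-43 G298S), and 14 (TDP-43 WT) and 2 (YFP) for unbound over input. Library sizes alone gave 5 in the TDP-43 WT IP, 5 in the YFP IP, 9 for TDP-43 G298S minus YFP, 21 and 5 in the inputs (TDP-43 G298S over YFP, TDP-43 WT over TDP-43 G298S) and 17 for unbound with TDP-43 G298S. Without mitochondrially encoded and rRNA genes there were 8 in the TDP-43 G298S IP and 3 for unbound with TDP-43 G298S, and with all 27 libraries 8 in the TDP-43 G298S IP and 3 in the inputs (TDP-43 WT over YFP). The unbound reference gave 24 (TDP-43 WT) and 25 (TDP-43 G298S). At least 10 counts gave 3 for TDP-43 G298S minus YFP and 15 (TDP-43 WT) and 18 (TDP-43 G298S) for unbound over input. TDP-43 G298S minus YFP had 0 with all 27 libraries, the unbound reference or the label number as a covariate. TDP-43 WT minus TDP-43 G298S had 0 in all settings other than DESeq2 and at least 10 counts, each left-out lysate included. The label number left 0 and 2 input calls over YFP (TDP-43 WT, TDP-43 G298S).

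With the lysate as a replicate block, 11, 16 and 15 members were called in the TDP-43 WT, TDP-43 G298S and YFP IPs, and the pairing ended the calls of eIF1A for TDP-43 WT minus TDP-43 G298S (0 members, adjusted p = 0.148) and of eEF5 (0.0712). With 1 lysate left out the IP counts ran from 5 to 12 (TDP-43 WT), 6 to 15 (TDP-43 G298S) and 1 to 18 (YFP), the differences from YFP from 0 to 2 (TDP-43 G298S), the inputs from 1 to 8 and 6 to 14 (TDP-43 WT and TDP-43 G298S over YFP), and unbound from 2 to 7 and 0 to 14 (TDP-43 WT and TDP-43 G298S). In the IPs the lowest counts came without WT-502 for TDP-43 WT, without G298S-503 or G298S-506 for TDP-43 G298S and without YFP-901 for YFP. In the inputs the lowest for TDP-43 WT came without WT-202, and in the unbound fraction without WT-502. The causes were not tested.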
